A study of Mus musculus with 2 samples.

Results

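The E protein TCF12 was examined together with 9 genes of the same helix-loop-helix family in single-nucleus RNA sequencing of mouse hearts. The 10 genes were taken by name: the E proteins Tcf12, Tcf3 and Tcf4, the partners Tcf15, Tcf21 and Tal1, and the inhibitors Id1, Id2, Id3 and Id4. Each name matched 1 of the 32589 genes in the count tables, and all 10 genes had UMIs in both libraries. The study compared 1 control library with 1 PD-1 inhibitor library, and asked what a blocking antibody against the checkpoint receptor PD-1 changes in cardiac cells. Male C57BL/6 mice were 8 weeks old at the start. Treated mice received InVivoPlus anti-mouse PD-1 antibody by intraperitoneal injection at 5 mg/kg on days 1 and 14 of a 28-day cycle, and control mice received PBS on the same days. How many hearts went into each library is not stated in the sources used here. With 1 library per condition there was no replicate, so no test was made. Every interval below is a 95% interval for counting error only, and a difference between the libraries cannot be told apart from a difference between animals or preparations.

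E proteins are basic helix-loop-helix factors found in most cells. They bind E-boxes, the sequence CANNTG, as dimers with each other or with partners that only some tissues make, such as TAL1 in endothelium and blood, TCF15 in the capillary endothelium of the heart, and TCF21 in epicardium and fibroblasts. ID proteins have the helix-loop-helix but lack the basic region, so a dimer of an ID protein with an E protein cannot bind DNA. ID genes are well-known targets of BMP signalling through SMAD1 and SMAD5, and ID2 is needed by several lymphoid and dendritic cell types.

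The control library had 10197 barcodes with 13177525 UMIs, and the treated one 7967 barcodes with 10875248 UMIs. After filtering, 9522 and 7644 nuclei were kept, with median depths of 1012 and 1055 UMIs. The libraries had 48 barcode sequences in common. Nuclei were clustered without the 10 genes and named from markers. ECs numbered 2805 (control) and 2505 (PD-1 inhibitor), fibroblasts 2477 and 1970, cardiomyocytes (CMs) 1282 and 1089, macrophages (MPs) 1255 and 883, mural cells 592 and 423, and mesothelial cells 480 and 462. T cells numbered 240 and 193, and B cells 175 and 80. A cluster led by cell cycle genes (32 and 13 nuclei) was left unnamed. Adipocytes and glial cells had 16 and 10 nuclei in the PD-1 inhibitor library and were left out of the comparison. ECs fell into clusters called endocardial-like (9 of 10 markers detected), capillary-like (10 of 10), arterial-like (8 of 10), lymphatic-like (8 of 10) and valve-like (6 of 10).

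Promoter sequence is shown for 5 of the genes because E-boxes, the sites that E proteins bind unless paired with an ID protein, can be looked for there. RefSeq start windows (GRCm38.p6) were found for 7 of the 10 genes. The sequences below are the upstream bases outside every exon annotated in GENCODE vM21, written 5′ to 3′ on the strand of the gene, with E-boxes (CANNTG, which reads the same on both strands) in capitals. The Tcf12 stretch is chr9:72111872-72112069 on the minus strand, the Tcf3 stretch chr10:80433648-80433885 on the minus strand, the Id2 stretch chr12:25096254-25096342 on the minus strand, the Id4 stretch chr13:48260866-48261115 on the plus strand, and the Tcf21 stretch chr10:22820175-22820393 on the minus strand.
Tcf12: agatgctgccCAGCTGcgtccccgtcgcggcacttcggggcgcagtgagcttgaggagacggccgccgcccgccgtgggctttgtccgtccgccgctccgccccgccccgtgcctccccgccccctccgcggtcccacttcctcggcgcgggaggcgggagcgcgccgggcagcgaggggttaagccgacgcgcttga
Tcf3: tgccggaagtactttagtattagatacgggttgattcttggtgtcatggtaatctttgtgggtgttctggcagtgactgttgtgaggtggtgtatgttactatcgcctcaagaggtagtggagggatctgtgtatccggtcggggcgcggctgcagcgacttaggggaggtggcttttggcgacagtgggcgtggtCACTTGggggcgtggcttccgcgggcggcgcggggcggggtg
Id2: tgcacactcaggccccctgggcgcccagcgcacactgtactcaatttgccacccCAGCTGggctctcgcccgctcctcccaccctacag
Id4: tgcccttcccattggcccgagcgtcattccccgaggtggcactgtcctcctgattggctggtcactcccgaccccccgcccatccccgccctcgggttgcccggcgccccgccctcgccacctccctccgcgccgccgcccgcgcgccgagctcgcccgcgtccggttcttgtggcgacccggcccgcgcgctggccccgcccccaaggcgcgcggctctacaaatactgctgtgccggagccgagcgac
Tcf21: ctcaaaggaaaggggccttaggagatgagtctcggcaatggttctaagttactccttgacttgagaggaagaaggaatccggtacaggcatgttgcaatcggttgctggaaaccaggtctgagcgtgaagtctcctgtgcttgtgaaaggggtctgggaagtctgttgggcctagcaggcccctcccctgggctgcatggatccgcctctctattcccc

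The Tcf12 and Id2 stretches each held 1 E-box with the letters CAGCTG, and the Tcf3 stretch held 1 with the letters CACTTG. The Id4 and Tcf21 stretches held none. E-boxes were common: of 32817 RefSeq start windows, 58.7% held one over the 198 bases that match the Tcf12 stretch, and 33.0% over the 89 bases that match the Id2 stretch. The Id2 stretch lies in an intron of a longer annotated Id2 transcript. The letters GGCGCC, which SMAD proteins can bind and which read the same on both strands, stood 1 time each in the Id2 and Id4 stretches, and in 2.73% and 9.59% of all windows over the same bases. None stood in the other 3 stretches. These are matches of letters, not sites shown to be bound.

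Tcf12 lies on chromosome 9 (GRCm38, minus strand, 71842688 to 72111871, 269 kb). Among the 12 cell types and EC clusters compared, its level was highest in capillary-like ECs, at 809 UMIs per 1000000 UMIs (CPM) in control nuclei and 565 CPM in PD-1 inhibitor nuclei. Below, the control value always stands first. Mural cells came next, at 539 and 437 CPM, and the capillary-like level lay above theirs beyond counting error in both libraries. Arterial-like ECs (441 and 520 CPM) and the mural cells that precede them in the order did not differ beyond counting error. CMs were lowest, at 176 and 143 CPM. Among subsets, fibroblasts led by Wif1 and Chad (108 and 87 nuclei, named from 3 markers, median depths 1004 and 1526 UMIs) had 899 and 1119 CPM. These values were above those of the capillary-like ECs, beyond counting error in the PD-1 inhibitor library but not in the control library. The larger set of fibroblasts led by Rgs17 and Fbn2 had 490 and 429 CPM. A Tcf12 UMI was seen in 41.6% of capillary-like control nuclei (38.4 to 44.8), and in 22.5% of control CMs (20.2 to 24.9), whose nuclei were deeper, with medians of 813 and 1408 UMIs. After each nucleus was thinned to 500 UMIs, these shares were 27.8% and 7.02%.

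The other E proteins had their own order of levels. Tcf4 (chromosome 18) was highest in capillary-like ECs, at 2295 CPM in both libraries, ahead of lymphatic-like ECs at 1299 and 1257 CPM. It was lowest in mesothelial cells, at 142 and 119 CPM. Tcf3, which encodes the E2A proteins of lymphocyte development, was sparse, with 871 UMIs over all kept nuclei. It was highest in B cells, at 105 CPM (22 UMIs) and 88.2 CPM (7 UMIs). These values did not differ beyond counting error from the arterial-like values of 96.2 and 53.8 CPM. Over 24 points (12 cell types and EC clusters, each in both libraries), the level of Tcf12 had a Pearson's r of 0.64 with Tcf3 and 0.59 with Tcf4. With the 4 ID genes r lay between -0.05 and 0.18. The points share their libraries and differ in depth, so these values are a description.

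Each of the tissue-restricted partners was highest in its own cell type. Tcf15, a partner of MEOX2 in fatty acid uptake by the capillaries of the heart, had 224 CPM (194 to 257) and 294 CPM (253 to 339) in capillary-like ECs. It had 6.65 and 9.78 CPM in endocardial-like ECs. A Tcf15 UMI was seen in 15.1% and 18.7% of capillary-like nuclei, and in 0.404% and 0.914% of fibroblasts, which should lack it. The median depth was 813 and 814 UMIs in the capillary-like nuclei, and 1044 and 1087.5 UMIs in fibroblasts. Tcf21, a factor of epicardium-derived fibroblasts, had 196 and 261 CPM in fibroblasts. ECs had 6.75 and 7.28 CPM. Tal1, which builds complexes with LMO2, LDB1 and GATA factors in endothelium and blood, lay between 53.8 and 126 CPM in all 5 EC clusters. MPs held 30.8 and 15.9 CPM of Tal1, and T cells none: 0 UMIs were found in 239003 and 197746 UMIs of T cells. At that depth 3 UMIs would be 12.6 and 15.2 CPM.

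The 4 ID genes also differed in where they were found. Id1 was highest in arterial-like ECs, at 842 CPM (689 to 1019) and 860 CPM (697 to 1051). Id3 was highest in endocardial-like ECs, at 657 and 811 CPM, and these values did not differ beyond counting error from valve-like ECs at 676 and 669 CPM. Id2 was highest in T cells, at 716 and 1102 CPM, and next in endocardial-like ECs, at 448 and 621 CPM. Capillary-like ECs had 60.4 and 48.7 CPM of Id2, so the large EC clusters stood apart for this gene. Within MPs, the cluster led by Cd209a and Klri1, with Clec9a and Flt3 of dendritic cells among its leading genes, had 344 and 498 CPM of Id2. The other MPs, led by Ms4a14 and Ms4a7, had 32.8 and 34.3 CPM. The T cell cluster listed Nkg7, Gzmb and Il2rb among its leading genes, which natural killer cells also express. Id4 was low everywhere and highest in mesothelial cells, at 31.6 and 42.4 CPM.

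**Figure D1:**
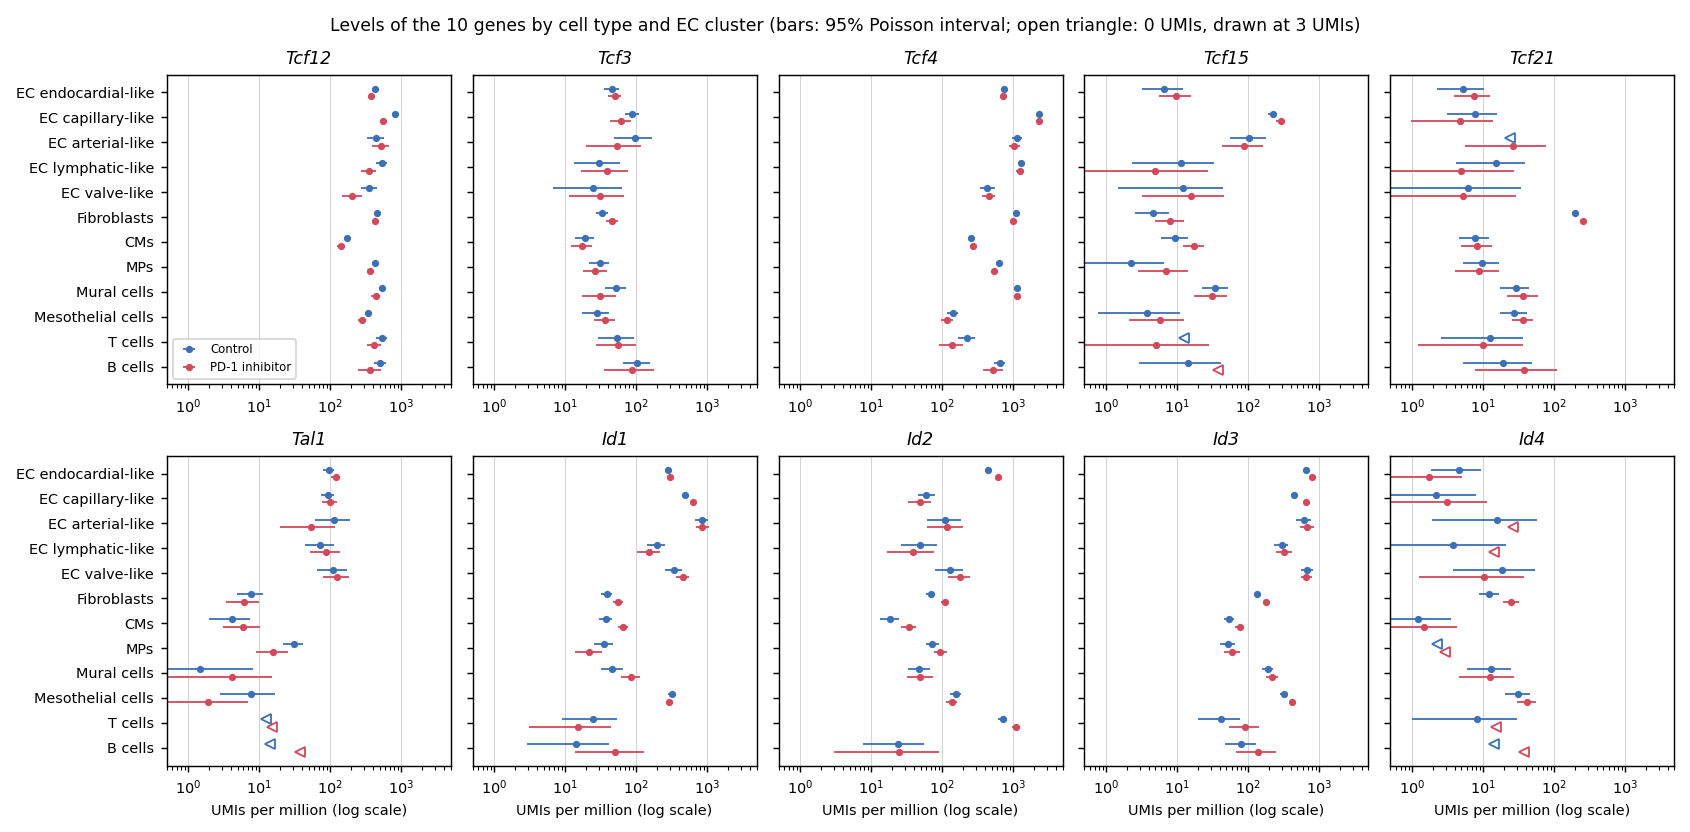
Level of each gene in CPM (log axis) in 12 cell types and EC clusters, for the control library (blue) and the PD-1 inhibitor library (red), with 95% Poisson intervals; open triangles mark 0 UMIs, drawn at the level of 3 UMIs. Tcf12 and Tcf4 were found in all 12 groups, while Tcf15 peaked in capillary-like ECs (224 and 294 CPM), Tcf21 in fibroblasts (196 and 261 CPM), and Id2 in T cells (716 and 1102 CPM) and endocardial-like ECs (448 and 621 CPM).

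By a fixed rule, the 3 genes whose levels ran most like each member over the 24 points were listed from 11480 genes. For Tcf12 they were Bbs9 (r = 0.88), Lrch3 (0.88) and Nrf1 (0.87). For Tcf4 they were Plekhg1 (0.88), Grk5 (0.86) and Prex2 (0.85), and for Tcf3 Tlk2 (0.85), Fubp1 (0.83) and Myo1e (0.82). Tcf15 ran most like Efr3b (0.95), Gm12002 (0.94) and Tcim (0.92), Tcf21 most like Gpr153 (0.90), Adamts2 (0.89) and Abca6 (0.88), and Tal1 most like Plk2 (0.96), Thsd1 (0.95) and Ephb4 (0.93). Id1 and Id3 were among each other's 3 nearest genes (r = 0.92). Id1 was nearest to Cav1 (0.94) and Agrn (0.92), and Id3 to Tm4sf1 (0.93) and Cd200 (0.92). Id2 had no neighbour above 0.77 (Camk4, then Lpcat3 and Rundc3b at 0.77), and Id4 was nearest to Cep170b (0.85), Adgrg2 (0.85) and Map1a (0.84). No member other than Id1 and Id3 had another member in its list.

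In PD-1 inhibitor ECs Tcf12 was lower, Id2 and Id3 were higher, and the remaining members with enough UMIs stayed between the fold thresholds, set at a log2 ratio of 0.32 in either direction for genes with at least 50 UMIs in the pair of libraries. Tcf12 had 551 CPM from 1632 UMIs in control ECs and 411 CPM from 1186 UMIs in treated ECs, which gives a log2 ratio (PD-1 inhibitor over control) of -0.42 (-0.53 to -0.31). Id2 had 262 and 404 CPM, from 777 and 1165 UMIs, which is a log2 ratio of 0.62 (0.49 to 0.76). Id3 had 559 and 730 CPM, a log2 ratio of 0.38 (0.29 to 0.48). None of these intervals reaches 0. Of the 8 members with at least 50 UMIs in ECs, 1 was past the threshold lower and 2 past the threshold higher, while 15.6% of 10691 genes in ECs were past the threshold lower and 18.6% higher. The member counts are thus near the background of the whole table.

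For the other E proteins in ECs, Tcf4 had 1266 and 1105 CPM, a log2 ratio of -0.20 (-0.26 to -0.13). Tcf3 had 58.0 and 51.0 CPM, a log2 ratio of -0.19 (-0.51 to 0.14). All 3 E proteins lay below 0, and counting error leaves the sign of the Tcf3 ratio undecided. Among the partners, Tal1 had 94.2 and 111 CPM (log2 ratio 0.24, from 0.00 to 0.47), and Tcf15 had 78.3 and 75.6 CPM (-0.05, from -0.32 to 0.22). Id1 had 369 and 395 CPM (0.10, from -0.02 to 0.22), so it stood apart from Id2 and Id3, which share its role. Tcf21 (20 and 21 UMIs) and Id4 (15 and 7 UMIs) were too sparse in ECs to be compared.

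The length of a gene moved with these ratios and has to be read beside them. Over all genes of ECs with at least 50 UMIs, the median log2 ratio was 0.32 in the shortest 20% of genes by genomic span, then 0.21, 0.10 and 0.02, and -0.13 in the longest 20%. Tcf12 and Tcf4 (346 kb) belong to the longest class, Tcf3 (24.1 kb) to the next, Tal1 (15.3 kb) to the middle class, Tcf15, Id2 and Id4 to the second shortest, and Id1, Id3 and Tcf21 to the shortest. Tcf12 lay below the median of its class in ECs, and 24.2% of that class was past the threshold lower. Tcf4 at -0.20 lay closer to that median. Id2 at 0.62 lay above its class median of 0.21, in which 36.9% of genes were past the threshold higher. Id3 at 0.38 was near its class median of 0.32, and Id1 at 0.10 was below it. Of EC UMIs, 1.49% and 1.74% were mitochondrial, and 0.666% and 0.946% came from ribosomal protein genes. The part of length and of these shares in the ratios was not tested.

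**Figure D2:**
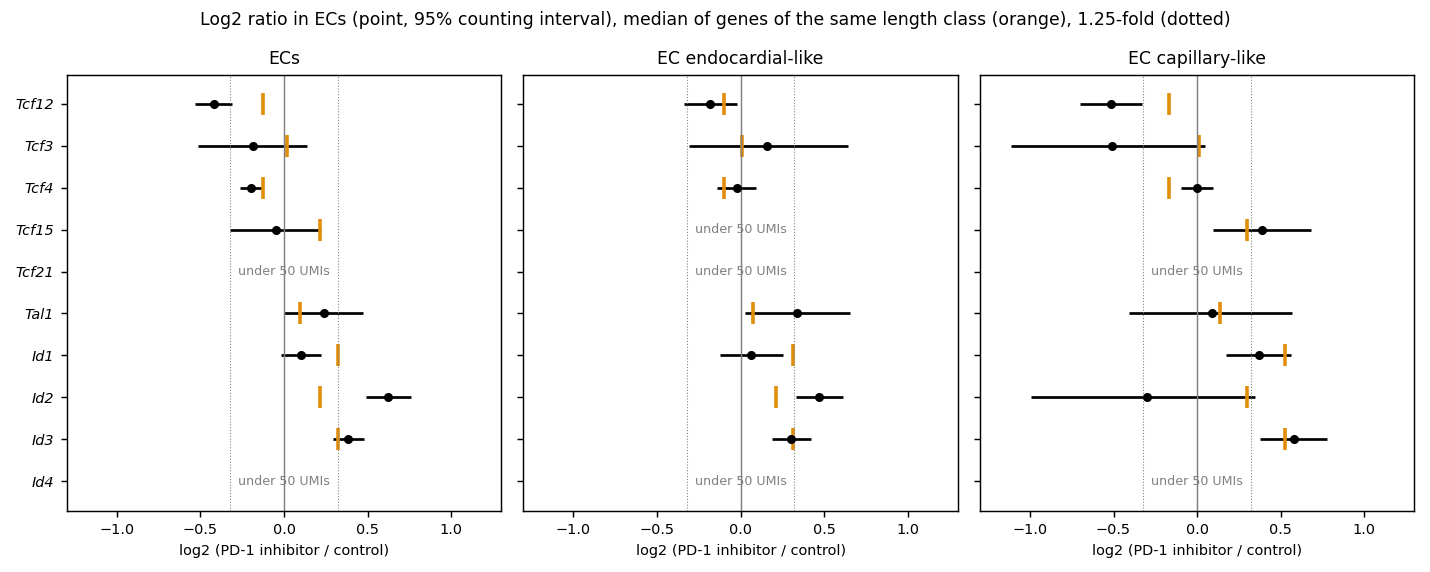
Log2 ratio of PD-1 inhibitor over control for each gene (x axis) in all ECs and in the endocardial-like and capillary-like clusters, with 95% counting intervals (black), the median of genes of the same length class (orange) and the fold thresholds (dotted). Tcf12 lay left of its class median in all 3 panels (-0.42, -0.18 and -0.52), Tcf4 moved from -0.20 in all ECs to -0.02 in endocardial-like ECs, and Id2 lay right of 0 in all ECs (0.62) and endocardial-like ECs (0.47) but left of it in capillary-like ECs (-0.30).

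The makeup of the ECs differed between libraries. Endocardial-like nuclei made up 49.4% and 59.4% of ECs, and capillary-like nuclei 34.5% and 27.2%. Since Tcf4, Tcf15 and Id2 differ strongly between these clusters, each gene was also computed with the cluster mix held equal, every cluster weighted by its UMIs over the pair of libraries. Tcf12 then had 533 and 421 CPM, a log2 ratio of -0.34. Tcf4 had 1193 and 1180 CPM, a log2 ratio of -0.01, so its lower level in all ECs was not seen within a constant mix. Tcf15 went from -0.05 to 0.36, with 68.9 and 88.1 CPM. Id2 went from 0.62 to 0.42 and Id3 from 0.38 to 0.33, Id1 had 0.19, Tal1 0.21 and Tcf3 -0.13. Tcf12 was thus the E protein that stayed past the threshold lower with the mix held fixed.

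Endocardial-like ECs, the lining of the heart chambers, had higher Id2 and Tal1 after PD-1 inhibition and a small difference in Tcf12. Tcf12 had 428 and 378 CPM, a log2 ratio of -0.18 (-0.34 to -0.02). Tcf4 had 738 and 726 CPM, a log2 ratio of -0.02 (-0.14 to 0.09). Id2 had 448 and 621 CPM, a log2 ratio of 0.47 (0.33 to 0.61), and an Id2 UMI was seen in 26.1% and 34.9% of nuclei (15.7% and 21.1% after thinning). Tal1 had 95.1 and 120 CPM, a log2 ratio of 0.34 (0.02 to 0.66), and Id3 had 657 and 811 CPM, a log2 ratio of 0.30 (0.19 to 0.42). Id1 differed little, at 285 and 299 CPM (0.06, from -0.12 to 0.25). Of the members, 2 were past the threshold higher and 0 lower, while 19.6% of 9118 genes were past the threshold higher and 15.7% lower. The class median was -0.10 for Tcf12 and 0.21 for Id2. With at least 500 genes per nucleus Tcf12 stood at -0.34, Id3 at 0.52 and Id1 at 0.34 in this cluster. Over 9 alternative settings Tal1 lay between 0.12 and 0.50 here, so whether it was past the threshold depended on the setting.

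Capillary-like ECs, the exchange vessels of the heart muscle, carried the larger Tcf12 difference, while Tcf15, Id1 and Id3 were higher. Here the log2 ratio of Tcf12 was -0.52 (-0.70 to -0.33). The share of nuclei with a Tcf12 UMI was 41.6% and 31.6%, or 27.8% and 21.3% after thinning, at median depths of 813 and 814 UMIs. Tcf4 had 2295 CPM in both libraries (interval of the log2 ratio -0.10 to 0.10). Of the E protein UMIs of these nuclei, 25.3% (23.8 to 27.0) and 19.4% (17.6 to 21.2) were Tcf12. Tcf3 had a log2 ratio of -0.51 (-1.11 to 0.05), from 80 and 39 UMIs.

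Tcf15 in capillary-like ECs had a log2 ratio of 0.39 (0.10 to 0.68), Id1 0.37 (0.17 to 0.56) and Id3 0.58 (0.38 to 0.78). The log2 ratio of Id2 was -0.30 here (-1.0 to 0.35), from 55 and 31 UMIs. In this cluster 3 members were past the threshold higher and 2 lower, while 22.1% of 6380 genes were past the threshold higher and 21.8% lower. The class medians were 0.53 for Id1 and Id3, 0.30 for Tcf15 and -0.17 for Tcf12 and Tcf4. Tcf4 thus lay above the median of long genes, Tcf12 below it, and Id1 below the median of short genes.

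The smaller EC clusters rest on few UMIs. The log2 ratio of Tcf12 was -0.59 (-1.03 to -0.18) in lymphatic-like ECs, from 139 and 72 UMIs, and -0.80 (-1.43 to -0.20) in valve-like ECs, from 58 and 39 UMIs. In arterial-like ECs it was 0.24 (-0.32 to 0.80), from 55 and 58 UMIs. The Tcf4 ratios in these clusters were -0.05, 0.07 and -0.12, with intervals that all held 0. Tcf12 was therefore lower in 4 of the 5 EC clusters with an interval below 0, and Tcf4 in none.

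In the 7 cell types other than ECs the Tcf12 ratios also lay below 0, from -0.12 in fibroblasts to -0.44 in B cells. A subset went the other way: in the fibroblasts led by Wif1 and Chad the Tcf12 ratio was 0.31 (-0.00 to 0.64), from 141 and 201 UMIs. Over the 12 cell types and EC clusters its log2 ratio was below 0 in 11, with the interval below 0 in 9, and it was below the median of the longest genes in 10. These 12 ratios come from the same pair of libraries and are not independent. Tcf4 was below 0 in 9 of 12, with the interval below 0 in 3, and below the median of its length class in 5. The signs of the Tcf12 and Tcf4 ratios were the same in 8 of 12 groups. Tcf12 had the same sign as Id3 in 2 of the 10 groups in which both had at least 50 UMIs, as Id2 in 2 of 9 and as Id1 in 4 of 10. Tcf12 is a long gene and the ID genes are short ones, so these sign counts move with the length trend. The part of that trend was not tested. Id3 was above 0 in 9 of 10 groups and above its class median in 5, Id2 in 7 of 9 and 6, and Id1 in 7 of 10 and 4.

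**Figure D3:**
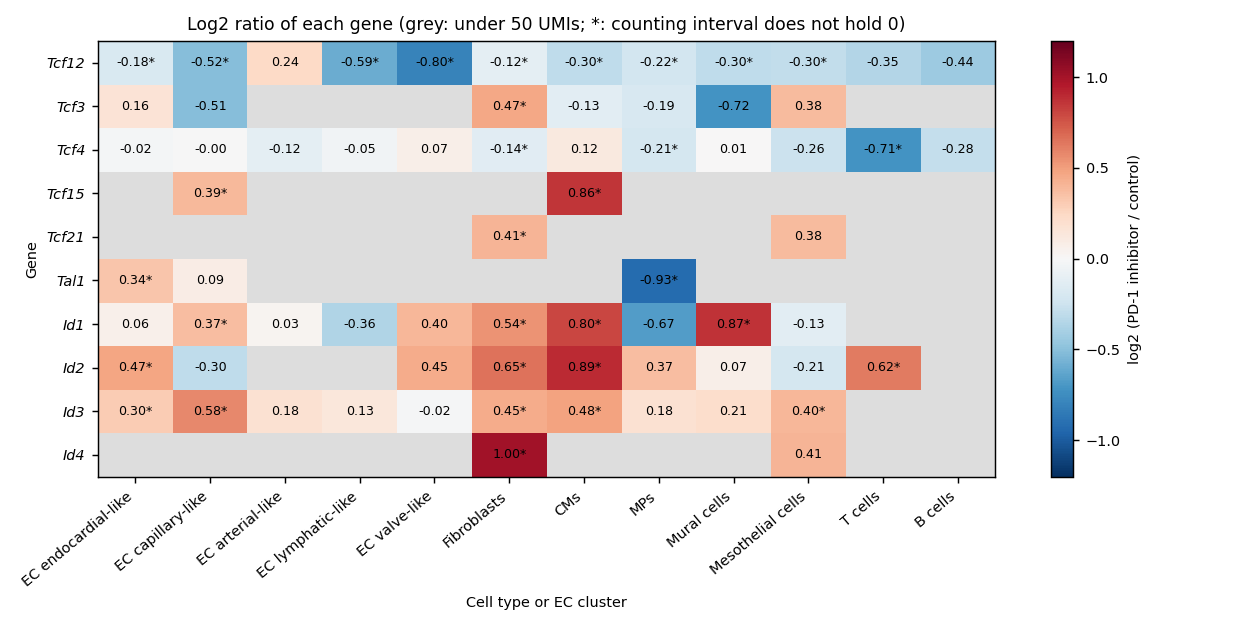
Log2 ratio of PD-1 inhibitor over control for the 10 genes (rows) in 12 cell types and EC clusters (columns), with blue for lower and red for higher after PD-1 inhibition, grey for under 50 UMIs in both libraries together, and an asterisk where the 95% counting interval does not hold 0. The Tcf12 row is blue in 11 of 12 columns, and the Id3 row is red in 9 of 10.

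Fibroblasts, the collagen-producing cells of the heart, had higher pooled values of all 4 ID genes and of Tcf21, and the fibroblast clusters differed among themselves. Id1 had 38.5 and 55.9 CPM (log2 ratio 0.54, from 0.17 to 0.91), and Id2 had 69.6 and 109 CPM (0.65, from 0.38 to 0.92). Id3 had 134 and 183 CPM (0.45, from 0.25 to 0.65), and Id4 had 12.4 and 24.9 CPM from 37 and 62 UMIs (1.0, from 0.40 to 1.64). Tcf21 had 196 and 261 CPM, a log2 ratio of 0.41 (0.25 to 0.57), and Tcf3 had 33.4 and 46.3 CPM, a log2 ratio of 0.47 (0.07 to 0.87). Tcf12 differed little, at 466 and 429 CPM (-0.12, from -0.23 to -0.00), which is about the class median of -0.13, and Tcf4 had -0.14 (-0.21 to -0.06). Here 6 members were past the threshold higher and 0 lower, while 18.1% of 10585 genes were past the threshold higher and 15.6% lower. In the shortest class, to which Id1, Id3 and Tcf21 belong, 49.5% of genes were past the threshold higher and the median was 0.32. Summed EC markers were 671 and 602 CPM in fibroblasts, with all 10 present in both libraries, and their part in these values was not tested. The makeup of the fibroblasts differed between libraries: those led by Rgs17 and Fbn2 numbered 1641 and 1127, and those led by Cilp and Cd248 numbered 728 and 756. In the Rgs17 and Fbn2 set, Tcf21 had 0.14 (-0.11 to 0.38) and Id3 0.15 (-0.14 to 0.44), both short of the threshold, while Id1 had 0.75 (0.18 to 1.33) and Id2 0.53 (0.17 to 0.89). In the Cilp and Cd248 set, Tcf21 had 0.57 (0.34 to 0.81), Id3 0.66 (0.35 to 0.97) and Id2 0.88 (0.43 to 1.35).

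CMs had higher Id1, Id2, Id3 and Tcf15. Id1 had 37.8 and 66.1 CPM (log2 ratio 0.80, from 0.41 to 1.2), Id2 18.5 and 34.5 CPM (0.89, from 0.34 to 1.47), Id3 54.7 and 76.4 CPM (0.48, from 0.14 to 0.83), and Tcf15 9.45 and 17.3 CPM from 23 and 35 UMIs (0.86, from 0.07 to 1.70). In CMs 4 members were past the threshold higher and 0 lower, beside 21.8% of 9225 genes higher and 22.8% lower. Tcf15 reached the UMI minimum in CMs largely through the PD-1 inhibitor library. Its place among the higher genes is thus not independent of the filter, whose part was not tested. EC transcripts moved with these values: the 10 EC markers, all present, summed to 526 and 707 CPM, and Fabp4, a lipid carrier of capillaries, had a log2 ratio of 0.89 (0.76 to 1.03). Their part in the result was not tested. With at most 5% mitochondrial UMIs the CM values were 0.17 for Id1 and -0.84 for Tcf15. Tcf12 had -0.30 (-0.52 to -0.08) in CMs, and -0.04 after thinning. Tcf4 had 0.12 (-0.05 to 0.28).

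MPs had lower Tal1 and Id1. Tal1 had 30.8 CPM (41 UMIs) and 15.9 CPM (16 UMIs), a log2 ratio of -0.93 (-1.89 to -0.09), and Id1 had 35.3 and 21.9 CPM, a log2 ratio of -0.67 (-1.49 to 0.07). The EC markers summed to 485 and 400 CPM in MPs, with all 10 present, so they moved the same way as both genes, and their part was not tested. Tal1 (41 and 16 UMIs) and Id1 (47 and 22 UMIs) reached the UMI minimum largely through the control library. Their place among the lower genes is thus not independent of the filter, whose part was not tested. Id2 had 73.6 and 95.4 CPM (0.37, from -0.05 to 0.80), and its level differed strongly between the MP clusters, as given above. Tcf12 had -0.22 (-0.42 to -0.03) and Tcf4 -0.21 (-0.37 to -0.06), both near the class median of -0.15. Of the members, 1 was past the threshold higher and 2 lower in MPs, beside 18.9% of 7965 genes higher and 20.9% lower. In the larger MP cluster, led by Ms4a14 and Ms4a7, 0 members were higher and 2 lower. There 18.6% of 7347 genes were past the threshold higher and 21.9% lower. Of 13 measured genes of the TAL1 complex and cofactors, 5 were past the threshold lower and 2 higher in MPs, beside 20.9% and 18.9% of all genes. The lower ones included Runx1, a factor of blood cells (-0.73, from -0.89 to -0.57), and Fli1 (-0.37, from -0.53 to -0.22). The higher ones were Lyl1, the nearest relative of TAL1 (0.43, from 0.14 to 0.71), and Lmo2 (0.41, from 0.12 to 0.70).

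In mural cells Id1 had 46.4 and 85.3 CPM from 32 and 41 UMIs (log2 ratio 0.87, from 0.17 to 1.59) and Tcf3 had 36 and 15 UMIs (-0.72, from -1.72 to 0.16). These 2 members were past the threshold, 1 higher and 1 lower, beside 21.2% of 5215 genes higher and 22.0% lower. Tcf3 reached the UMI minimum in mural cells largely through the control library, so its call is not independent of the filter. The part of the filter was not tested, and after thinning the Tcf3 ratio was 0.049. Tcf12 had -0.30 (-0.55 to -0.05) and Tcf4 0.01 (-0.15 to 0.17). In mesothelial cells Id3 had 321 and 425 CPM (0.40, from 0.18 to 0.63) and Tcf12 347 and 282 CPM (-0.30, from -0.54 to -0.05). There 4 members were past the threshold higher, Tcf3, Tcf21, Id3 and Id4, and 0 lower, beside 17.0% of 7278 genes higher and 18.4% lower. The interval lay above 0 for Id3 alone of these. In mesothelial cells the length classes differed little, with medians from 0.07 to -0.02. In T cells the log2 ratio of Id2 was 0.62 (0.33 to 0.92), from 171 and 218 UMIs, and that of Tcf4 -0.71 (-1.45 to -0.03), from 54 and 27 UMIs.

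ID and E protein transcripts were then set against each other. For every UMI of Tcf12, Tcf3 and Tcf4 together, control ECs held 0.637 UMIs of the ID genes (0.611 to 0.665) and treated ECs 0.977 (0.937 to 1.02), a log2 change of 0.62 (0.53 to 0.70). With the cluster mix held equal the change was 0.42. Within clusters it was 0.38 (0.26 to 0.50) in endocardial-like and 0.56 (0.40 to 0.72) in capillary-like ECs. In arterial-like, lymphatic-like and valve-like ECs it was 0.12, 0.09 and 0.40, with intervals that held 0. In fibroblasts the values were 0.159 and 0.253, a change of 0.67 (0.52 to 0.82), in CMs 0.251 and 0.412 (0.72, from 0.45 to 0.98), and in T cells 0.974 and 1.99 (1.03, from 0.59 to 1.48). B cells were lowest in the control library, at 0.0951, and mesothelial cells highest, at 1.61. E proteins are mostly long genes and ID genes short ones, so this quantity moves with the length trend, and the part of that trend was not tested.

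**Figure D4:**
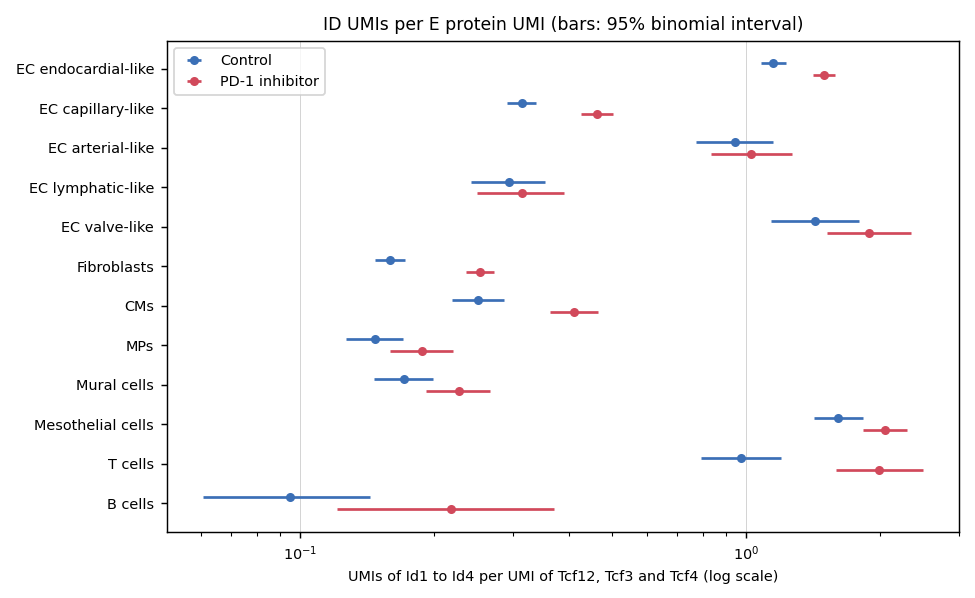
UMIs of Id1 to Id4 per UMI of Tcf12, Tcf3 and Tcf4 (log axis) in 12 cell types and EC clusters, for the control library (blue) and the PD-1 inhibitor library (red), with 95% binomial intervals. The PD-1 inhibitor value is the higher in all 12 groups, with 0.463 against 0.314 in capillary-like ECs and 1.99 against 0.974 in T cells.

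Whether Tcf12 is found in the same nuclei as its partners was looked at within clusters, and no difference was detectable at this depth. In capillary-like control nuclei thinned to 500 UMIs, a Tcf4 UMI was seen in 57.2% (51.1 to 63.2) of 269 nuclei with a Tcf12 UMI and in 59.6% (55.9 to 63.3) of 698 nuclei without one. The Tcf15 shares were 11.5% and 9.31%, and the Id3 shares were 13.8% (9.87 to 18.5) and 17.9% (15.1 to 21.0). In the capillary-like nuclei of the PD-1 inhibitor library the Id3 shares were 26.2% (19.3 to 34.1) and 22.4% (19.0 to 26.2). In endocardial-like ECs an Id2 UMI was seen in 14.3% and 16.0% of control nuclei with and without Tcf12, and in 18.6% and 21.6% of PD-1 inhibitor nuclei. All of these pairs of intervals overlapped.

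Genes around the members were taken from lists. Of 16 further helix-loop-helix partners of E proteins, 4 had at least 50 UMIs in ECs and all 4 were past the threshold higher, beside 18.6% of all EC genes, with a median of 0.94 beside 0.01 for all genes. Lyl1 had 111 and 184 UMIs (log2 ratio 0.77, from 0.42 to 1.12), Hand2, a factor of endocardium and heart development, had 207 and 279 UMIs (0.47, from 0.21 to 0.74), Twist1, a factor of mesenchyme, had 17 and 37 UMIs (1.14), and Atoh8 had 22 and 47 UMIs (1.12). Of these, 2 reached 50 UMIs in endocardial-like ECs, where Lyl1 had 0.45 (0.02 to 0.88) and Hand2 0.22 (-0.07 to 0.52). Twist1 and Atoh8 reached 50 UMIs in ECs largely through the PD-1 inhibitor library, so the count and the median are not independent of the filter. Hand2 had 112 and 131 CPM in endocardial-like and 9.89 and 20.4 CPM in capillary-like ECs, whose shares of ECs differed. The length classes of these partners were not set beside their ratios, and the class medians in ECs ran from 0.32 in the shortest genes to -0.13 in the longest. The part of the filter, of the mix and of length was not tested. In fibroblasts 0 of 4 measured partners were past the threshold in either direction.

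Of the 16 TAL1 complex and E protein cofactor genes, all measured in ECs, 4 were past the threshold lower and 2 higher, beside 15.6% and 18.6% of all EC genes, with a median of -0.16. The lower ones included Runx1 (70 and 38 UMIs, log2 ratio -0.83, from -1.45 to -0.25) and Fli1, an ETS factor of endothelium (2006 and 1222 UMIs, -0.68, from -0.78 to -0.57). The higher ones were Lyl1 and Gata2 (0.37, from 0.20 to 0.53), and Gata2 was short of the threshold in endocardial-like (0.22) and capillary-like ECs (0.15), whose shares of ECs differed. Lmo2, the bridge of the TAL1 complex, had -0.09 (-0.25 to 0.08) and Ldb1 0.21 (0.02 to 0.41). Fli1 was lower in endocardial-like (-0.61) and capillary-like ECs (-0.43) alike, in both with the interval below 0.

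Of the 22 genes of the BMP and SMAD input to ID genes, 14 were measured in ECs, 4 were past the threshold higher and 2 lower, beside 18.6% and 15.6% of all EC genes, with a median of 0.15. Among the endocardial-like nuclei 1 of 13 was past it higher, Bmp4, beside 19.6% of all genes. In pooled ECs the higher ones were the ligands Bmp4 (247 and 410 UMIs, log2 ratio 0.77, from 0.54 to 1.00) and Bmp6 (0.36, from 0.25 to 0.47), Tmem100, an endothelial target of BMP signalling (0.44, from 0.21 to 0.67), and the inhibitor Smad7 (0.33, from 0.19 to 0.46). The signal transducer Smad1 was lower (-0.37, from -0.56 to -0.19), and Bmper, on 40 and 28 UMIs, had -0.47 (-1.23 to 0.26). The endocardial-like and capillary-like clusters differed in value: Smad6, Smad7 and Bmp4 had 0.24, 0.29 and 0.80 in the former and -0.55, -0.31 and 0.06 in the latter, where 0 of 11 genes were past the threshold higher and the median was -0.28. The difference between the clusters was not tested.

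Immediate early genes respond within minutes to stress and handling, and were read beside the ID genes for that reason. Their median ratio was below 0 in all ECs, endocardial-like ECs and fibroblasts, but near 0 in capillary-like ECs, where Id1 and Id3 were higher. In MPs their median was -0.50, and there Id1 lay below 0 while Id2 (0.37) and Id3 (0.18) lay above it. Their median was also below 0 in CMs (-0.55), mural cells (-0.52) and mesothelial cells (-0.85), and Id3 lay above 0 in each of these. The part of handling in the ID ratios was not tested. In ECs 10 of 14 measured were past the threshold lower and 0 higher, beside 15.6% and 18.6% of all EC genes, with a median of -1.0, led by Fos (785 and 69 UMIs, log2 ratio -3.46), Egr1 (676 and 124 UMIs, -2.40) and Nr4a1 (418 and 121 UMIs, -1.75). In endocardial-like ECs 12 of 13 were lower (15.7% of all genes), with a median of -2.0. In capillary-like ECs 2 of 12 were lower and 2 higher, beside 21.8% and 22.1% of all genes, with a median of 0.09. The lower ones were Fos (47 and 10 UMIs, -1.66, from -2.87 to -0.71) and Egr1 (127 and 48 UMIs, -0.88, from -1.40 to -0.40). The higher ones were Btg2 (0.45) and Klf2 (0.35). In fibroblasts 10 of 14 were lower (15.6% of all genes), with a median of -1.03.

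Of the 10 genes of the TCF15 and MEOX2 fatty acid programme, 2 were past the threshold lower and 1 higher in all ECs, beside 15.6% and 18.6% of all genes, with a median of 0.01. Meox2 (315 and 169 UMIs, log2 ratio -0.86, from -1.14 to -0.58) and Pparg (-0.73, from -0.96 to -0.50) were lower, and the fatty acid binding protein Fabp5 was higher (0.68, from 0.56 to 0.81). Within capillary-like ECs, where Tcf15 is found, 8 were measured, 3 were higher and 2 lower, beside 22.1% and 21.8% of all genes, with a median of 0.25. Gpihbp1, which anchors lipoprotein lipase on capillaries, had 0.67 (0.50 to 0.85), Fabp4 0.71 (0.64 to 0.78) and Fabp5 0.71 (0.32 to 1.10), while Meox2 had -0.43 (-0.74 to -0.14) and Pparg -0.12 (-0.38 to 0.13). So Tcf15 and its partner Meox2 had ratios of opposite sign in these nuclei. Tcf15 at 0.39 lay near its length class median of 0.30, and the class medians here ran from 0.53 in the shortest genes to -0.17 in the longest. The other genes of this list were not set beside their length classes, and the part of length was not tested.

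Of 4 genes that set the stability of ID proteins, 2 were past the threshold higher in ECs, beside 18.6% of all EC genes: Fzr1, an activator of the anaphase-promoting complex (47 and 68 UMIs, log2 ratio 0.57, from 0.01 to 1.14), and Usp1, a deubiquitinase of ID proteins (147 and 182 UMIs, 0.35, from 0.03 to 0.67). Usp1 had 0.05 in capillary-like ECs. In all ECs Cops5 had 0.06 and Smurf2 -0.02. Tgfb1, the growth factor gene that the study links to TCF12, had a log2 ratio of 0.14 (-0.06 to 0.34) in ECs. In capillary-like ECs, where Tcf12 had -0.52, that of Tgfb1 was 0.26 (-0.14 to 0.66), from 117 and 98 UMIs.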

How the data were processed

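The authors deposited, per library, whole-number UMI counts of genes by barcode without normalization. The submitters' processing notes name GRCm38 (mm10), and the aligner and counter are not given in the sources used here. Barcodes under 200 genes or over 20% mitochondrial UMIs were dropped, and Scrublet then removed 5.85% and 3.87% of those left as doublets. Clustering used scanpy 1.11.5 with 2000 variable genes, from which the 10 genes were left out, 30 principal components, 15 neighbours and Leiden resolution 1. A cluster was named from its markers where at least 3 were detected. UMIs were summed per cell type and library and divided by all UMIs of the same nuclei (CPM). Log2 ratios used sums with 0.5 UMI added. Intervals are exact (Poisson for CPM, Clopper-Pearson for shares, conditional binomial for ratios). UMI counting limits PCR duplicates, yet intervals cover counting error only. A gene with 50 or more UMIs over the pair of libraries entered the counts, and was called past a 5-to-4 fold (log2 ratio 0.32). Gene positions and spans came from GENCODE vM21, in which 32445 of 32589 identifiers matched. All 10 genes are described in every cell type, and genes on lists were named by the 3 with the largest log2 ratio among those with at least 100 UMIs in ECs, and other list genes named were chosen after their values were seen. The alternatives tried are in the closing section. Members and lists were chosen with earlier results of these data known. The calculation was tested on simulated data.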

Additional observations from a re-analysis of the deposited data

Results flagged for a closer look

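Tal1 had log2 ratios of opposite sign in different cell types, with counting intervals that did not hold 0. The ratio was 0.34 (0.02 to 0.66) in endocardial-like ECs, higher after PD-1 inhibition, and between 0.12 and 0.50 over 9 alternative settings. In MPs it was -0.93 (-1.89 to -0.09), lower, from 41 and 16 UMIs. Tal1 reached the UMI minimum in MPs largely through the control library, so this value is not independent of the filter. The EC markers in MPs summed to 485 and 400 CPM, which is the same direction as Tal1. The part of the filter and of EC transcripts was not tested. With 1 library per condition the difference between the cell types was not tested, and both intervals come close to 0.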

How the results depend on the processing

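No paired analysis was possible because each condition has 1 library and no test was made. Over 69 results and 10 alternatives, 607 of 632 values stayed within the counting interval of the value reported (a count of members within 1.5 times), 22 moved outside it and 3 changed sign. The log2 ratio of Tcf12 in ECs lay between -0.45 and -0.34, and past the fold threshold, under all 10 alternatives. In ECs 1 member was past the fold threshold lower under all of them, and 2 or 3 members higher. The log2 change of ID UMIs per E protein UMI in ECs was 0.42 with the same mix of EC clusters. The changed signs were Tcf15 in CMs with at most 5% mitochondrial UMIs (-0.84), and, with each nucleus thinned to 500 UMIs, Tcf3 in mesothelial cells (-0.076) and in mural cells (0.049). The cause was not tested. With 1 library per condition no setting shows how animals vary, and under 50 UMIs no member was compared.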

Other observations

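Over all kept nuclei of each library, Id2 had a log2 ratio of 0.68, Id3 0.54, Id1 0.34 and Tcf12 -0.31. The mix of cell types differs between the libraries, so these values stand outside the comparisons above.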
